A study of Homo sapiens and Mus musculus with 20 samples.

Results

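KDM6A occupancy was examined in ARP1, a human multiple myeloma cell line, by chromatin immunoprecipitation with an antibody to KDM6A. The antibody was used on a line whose genotype label reads KDM6A knock out (KO) and on the line labelled KDM6A wild type (WT), with 1 library each. The labels give no treatment for either line and do not say whether the KO line is a single clone. The regions described here are those listed in WT cells with no overlapping region (at least 1 bp) in KO cells, called WT-only regions. They were taken on chromosomes 1 to 22 and X after 252 bins of 1 Mb were left out because either list held over 10 times its median number of regions there. Of 31213 WT regions outside these bins, 28305 were WT-only, which is 90.7% (95% interval 90.4 to 91.0), and 2908 had a KO region. In the other direction, 1607 of the 4495 KO regions had no WT region (35.8%, 34.3 to 37.2). Further lists served as independent readouts. H3K27ac, H3K4me1, H3K27me3 and input DNA came from the same KO and WT genotypes, with 1 more input library from cells labelled JmjD-dead. An HA antibody had been used on a line with HA-tagged in its title and a knock out genotype label, and on an untagged WT line. The KDM6A antibody had also been used on KARPAS, a line with the same multiple myeloma label and a WT genotype label. Each group had 1 library, so no difference between genotypes has a replicate check and none was tested. The 95% intervals are exact Clopper-Pearson intervals and cover counting error only.

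KDM6A, also called UTX, is a demethylase that removes methyl groups from lysine 27 of histone H3. It is a subunit of the COMPASS complexes built around KMT2C and KMT2D, which place H3K4me1 at enhancers. H3K4me1 marks enhancers in general, and together with H3K27ac it marks active ones. Promoters of active genes also carry H3K27ac. Loss of KDM6A is a recurrent event in multiple myeloma, a cancer of plasma cells.

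The promoter windows below belong to 5 interferon-stimulated genes and to CD38, and each overlaps a WT-only region. They are shown because the interferon and plasma cell genes are the groups described in most detail further on, and because the interferon promoters hold the element whose share in windows on WT-only regions differed most from its share in all windows. Each window is RefSeq sequence of GRCh38.p14, running from 250 bases before the gene start to 50 bases after it, 5′ to 3′ on the strand of the gene. Capitals mark matches to the core of the element bound by interferon regulatory factors, searched as GAAA, any 2 bases and GAAA again on both strands. A match on the opposite strand starts and ends with TTTC, and overlapping matches run together.
IFIT1, chr10:89392373-89392672, plus strand: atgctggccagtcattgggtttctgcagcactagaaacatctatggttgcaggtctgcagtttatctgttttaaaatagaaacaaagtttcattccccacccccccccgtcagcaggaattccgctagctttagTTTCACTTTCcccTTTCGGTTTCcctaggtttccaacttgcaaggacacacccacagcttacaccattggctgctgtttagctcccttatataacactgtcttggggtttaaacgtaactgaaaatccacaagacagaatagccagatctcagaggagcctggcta
IFIT5, chr10:89414318-89414617, plus strand: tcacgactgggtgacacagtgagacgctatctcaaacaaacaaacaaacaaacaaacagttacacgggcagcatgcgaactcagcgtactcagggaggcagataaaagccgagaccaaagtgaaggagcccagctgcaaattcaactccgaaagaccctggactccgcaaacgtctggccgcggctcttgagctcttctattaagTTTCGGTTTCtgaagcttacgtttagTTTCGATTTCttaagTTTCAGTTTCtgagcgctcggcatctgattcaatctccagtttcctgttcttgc
IFI44L, chr1:78620198-78620497, plus strand: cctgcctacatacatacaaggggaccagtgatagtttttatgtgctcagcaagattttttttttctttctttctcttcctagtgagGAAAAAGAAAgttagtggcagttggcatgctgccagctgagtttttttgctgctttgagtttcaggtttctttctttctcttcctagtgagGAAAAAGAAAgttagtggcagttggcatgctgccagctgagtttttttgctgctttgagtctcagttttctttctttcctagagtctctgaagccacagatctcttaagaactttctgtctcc
ISG20, chr15:88638766-88639065, plus strand: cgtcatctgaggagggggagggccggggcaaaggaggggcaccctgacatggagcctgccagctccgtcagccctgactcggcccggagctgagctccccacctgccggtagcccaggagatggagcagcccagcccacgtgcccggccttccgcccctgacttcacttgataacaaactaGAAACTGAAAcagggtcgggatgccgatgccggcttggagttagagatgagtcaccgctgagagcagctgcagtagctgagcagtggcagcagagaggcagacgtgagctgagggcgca
BST2, chr19:17405581-17405880, minus strand: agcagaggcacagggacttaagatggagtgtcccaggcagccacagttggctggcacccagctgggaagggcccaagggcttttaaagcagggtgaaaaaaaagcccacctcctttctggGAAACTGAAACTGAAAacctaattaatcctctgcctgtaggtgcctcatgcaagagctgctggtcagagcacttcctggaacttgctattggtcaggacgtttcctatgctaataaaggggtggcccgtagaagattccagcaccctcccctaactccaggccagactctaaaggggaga
CD38, chr4:15778078-15778377, plus strand: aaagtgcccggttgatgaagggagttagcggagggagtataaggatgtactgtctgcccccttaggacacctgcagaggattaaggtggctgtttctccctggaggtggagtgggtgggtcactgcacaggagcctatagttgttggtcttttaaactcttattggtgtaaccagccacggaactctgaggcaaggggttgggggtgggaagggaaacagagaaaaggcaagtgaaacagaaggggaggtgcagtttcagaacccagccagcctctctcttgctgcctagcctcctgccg

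IFIT5 held 3 matches, IFIT1, IFI44L and BST2 held 2 each, ISG20 held 1 and CD38 held 0. WT-only regions covered all 300 bases of the IFIT1 window, 279 of IFIT5, 278 of IFI44L, 168 of ISG20, 120 of BST2 and 267 of CD38. The matches in IFIT1, IFIT5 and IFI44L lay in the covered part, and those in ISG20 and BST2 lay outside it. A match is a description of the letters and does not show that a factor binds there, and a window without one shows only that these letters are not in it.

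Across all windows, 135 overlapped a WT-only region and 18 of them held the interferon regulatory factor element, which is 13.3% (8.10 to 20.3). In 12 of the 18 a match touched the WT-only region itself. The share was 3.15% (2.87 to 3.45) over all 14418 windows outside the dense bins, and 2.51% (2.18 to 2.88) over the 7878 windows that lay on a WT H3K27ac region without a WT-only region. The 18 genes, with 5 from the interferon list, also included DDX60, DDX60L, SAMD9 and NMI, all known as interferon-induced genes, and BCL2A1, a survival gene of the BCL2 family. BST2 and MVB12A are neighbours, and GOLGA6A and GOLGA6B are near-identical copies whose reads may be shared. Without the members of the interferon list the share was 10.0% (13 of 130 windows, 5.43 to 16.5). WT-only windows on WT H3K27ac held the element in 11 of 118 cases (9.32%), and those without H3K27ac in 7 of 17 (41.2%, 18.4 to 67.1). The element was in 5.70% (4.45 to 7.16) of the 1194 windows on the HA list of the HA-tagged line, in 2.77% (2.02 to 3.7) of the 1587 on the HA list of the untagged line, and in 5.07% (3.74 to 6.71) of the 907 on the KARPAS list. Of the 27 windows on a WT region with a KO region 2 held it (7.41%, 0.910 to 24.3), and of the 34 on a KO region 2 (5.88%, 0.720 to 19.7), intervals that include the share in WT-only windows. Of the other motifs, searched on both strands, the GC box GGGCGG was found in 51.1% of WT-only windows, against 58.8% of all windows and 74.2% of those on H3K27ac without a WT-only region. The CCAAT box was in 36.3% of WT-only windows and 36.5% of all windows, and the ETS element CCGGAAGT in 5.93% and 6.28%. The E-box CACGTG was in 12.6% of WT-only windows and 8.75% of all windows, the TATA box TATAAA in 8.15% and 9.52%, and the AP-1 element TGANTCA in 8.15% and 5.72%. The cyclic AMP response element TGACGTCA was in 1 WT-only window (0.741%), against 2.62% of all windows, and the NRF1 element in 1.48% and 1.78%. The median GC content of WT-only windows was 57.3%, against 63.0% over all windows, and the part of base composition in the motif shares was not tested.

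The KO library held 20.2 M tags (M, units of 1000000) and the WT library 11.9 M after the authors' filtering. The dense bins held 90% of the 44936 KO regions and 65.7% of the 90964 WT regions. The longest block of adjoining bins lay at 143 to 169 Mb of chromosome 1, and others included those at 11 to 20 Mb of chromosome 2 and 108 to 113 Mb of chromosome 11. In these 3 blocks the KO list held 4626, 2981 and 1619 regions and the WT list 2841, 659 and 75. With these bins kept, the WT-only share was 69.4%. The ARP1 label was checked against H3K27ac in WT cells. A region lay at the start of 59.5% of all tested genes. It lay at 15 of 16 tested plasma cell genes, as at 15 of 15 housekeeping, 17 of 17 endoplasmic reticulum and 20 of 21 MHC class I genes. It lay at 5 of 14 B cell genes, at 2 of 9 T and NK cell markers, at 0 of 10 myeloid and erythroid markers and at 3 of 13 epithelial and stromal markers. A list of regions does not show whether the KDM6A coding sequence was disrupted. The WT-only region nearest to the start of KDM6A itself lay 620 kb away, so the KDM6A lists give no reading at that gene.

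WT-only regions were lower in the WT list than the regions with a KO counterpart. Pileup, the number of extended tags stacked at the summit, had a median of 8 in WT-only regions and a highest value of 99. In WT regions with a KO region it had a median of 13 and a highest value of 241. The median fold enrichment over the mean of the library was 4.78 in WT-only regions and 7.44 in WT regions with a KO region. The lowest pileup listed was 7 in the KO library and 5 in the WT library, which correspond to fold enrichments of 3.21 and 3.19 on each library's own scale. The WT-only share was 66.1% (64.4 to 67.7) in the highest decile of WT rank, where regions were ranked by −log10 q and then by fold. It was 86.8% in the second-ranked decile and 97.0% in the lowest. Ties in rank were ordered by chromosome and start, so the lower deciles are partly divided by position. All regions of the sixth decile had a pileup of 8, and all of the ninth a pileup of 6. Near the limit of the definition, 80 WT regions overlapped a KO region by 1 to 50 bp, with a median pileup of 7. Of the WT-only regions, 1226 had a KO region within 1 kb, with a median pileup of 8.

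High-ranked WT-only regions lay mostly on H3K27ac and on H3K4me1. H3K27ac of WT cells overlapped 66.4% (64.4 to 68.5) of the WT-only regions in the highest decile and 16.8% (15.5 to 18.2) of those in the lowest. Over all WT-only regions the share was 33.1% (32.6 to 33.7), against 48.2% (46.3 to 50) of the WT regions with a KO region. H3K4me1 overlapped 34.9% (34.3 to 35.5) of the WT-only regions and 51.9% (50.1 to 53.8) of those with a KO region. Within the highest decile, which held 1059 of the 2908 regions with a KO region, H3K27ac overlapped 66.4% of WT-only regions and 70.8% (68.0 to 73.5) of regions with a KO region, and H3K4me1 68.3% (66.3 to 70.3) and 75.9% (73.2 to 78.5). Averaged over the 10 deciles, H3K27ac overlapped 34.5% of WT-only regions and 32.1% of regions with a KO region, and it was higher in WT-only regions in 7 of 10 deciles. The same mean for H3K4me1 was 36.3% in WT-only regions and 35.1% in regions with a KO region, and it was higher in WT-only regions in 6 of 10 deciles. These means weigh each decile alike, although neighbouring lower deciles share pileup values. The WT H3K4me1 list was not confined to distal elements. By its own rank, 4802 of the 7087 regions in its highest decile lay within 2.5 kb of a gene start. For H3K27ac these were 3492 of 5314. Overlap with both marks therefore does not by itself identify an enhancer. Of the WT-only regions in the highest KDM6A decile, 4.41% (3.57 to 5.39) lay within 2.5 kb of a gene start. H3K27me3, the mark that KDM6A removes, overlapped 2.78% (2.60 to 2.98) of WT-only regions and 7.39% (6.47 to 8.41) of WT regions with a KO region. The WT H3K27me3 library held only 5.03 M fragments, and its regions covered 7.67 Mb, so a low overlap does not show that the mark is absent. It overlapped 6.60% of WT-only regions with both H3K27ac and H3K4me1, and 0.663% of those with neither. The WT H3K27me3 regions had a median pileup of 6 and were called without a control. The part of background in these overlaps was not tested. Input regions of any ARP1 genotype overlapped 0.611% (0.524 to 0.709) of WT-only regions and 3.68% (3.03 to 4.43) of regions with a KO region. The inputs were shallow, with 0.223 to 0.725 M fragments.

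The HA lists and the KARPAS list differed between the sets in the mean over deciles. The HA list of the HA-tagged line overlapped 37.1% of WT-only regions and 42.2% of regions with a KO region. The HA list of untagged WT cells, in which no tag is labelled, overlapped 22.4% of WT-only regions and 46.7% of regions with a KO region. The KARPAS list overlapped 16.9% of WT-only regions and 32.5% of regions with a KO region. All 3 lists were lower in WT-only regions in 10 of 10 deciles. The untagged HA list ran opposite to the others along the rank, with 4.17% (3.35 to 5.13) of the WT-only regions in the highest decile and 25.0% (23.4 to 26.6) in the lowest.

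**Figure D1:**
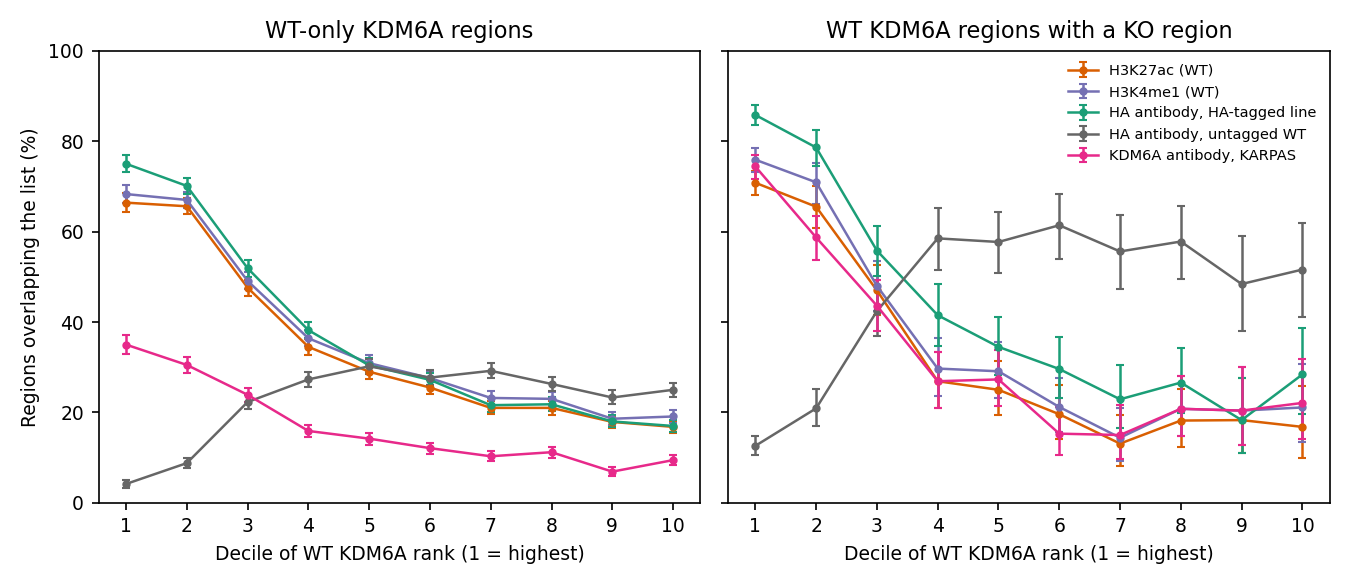
Share of WT-only KDM6A regions (left) and of WT KDM6A regions with a KO region (right) that overlap each list, in percent, by decile of WT KDM6A rank. Bars are 95% Clopper-Pearson intervals. Overlap with H3K27ac, H3K4me1, the HA-tagged line and KARPAS is highest in the top deciles of both sets, and overlap with the untagged HA list is lowest there (4.17% and 12.6% in the highest decile).

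The 2 histone marks divided the WT-only regions into sets with different shares on the HA and KARPAS lists. Both marks were present at 8731 WT-only regions (30.8%), neither at 17786 (62.8%), H3K4me1 alone at 4.05% and H3K27ac alone at 2.27%. Of the regions with both marks, 86.9% (86.2 to 87.6) were on the HA list of the HA-tagged line and 5.67% (5.19 to 6.18) on the HA list of untagged cells. Of the regions with neither mark, 8.58% (8.17 to 9) were on the HA-tagged list and 33.0% (32.3 to 33.7) on the untagged list. The KARPAS list held 37.8% (36.8 to 38.8) of the regions with both marks and 4.88% (4.57 to 5.21) of those with neither. Regions with both marks also had higher pileups, with a median of 10 against 8, and 14.7% against 3.20% of them were in the highest decile. The 3592 WT-only regions (12.7%) on both the HA-tagged and the KARPAS list carried both marks in 85.2% (84.0 to 86.3) of cases. The part of the background seen with the HA antibody in the regions without marks was not tested. When regions on the untagged HA list were left out of both KDM6A lists, 92.1% of the WT regions were WT-only and 40.5% of these lay on H3K27ac.

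**Figure D2:**
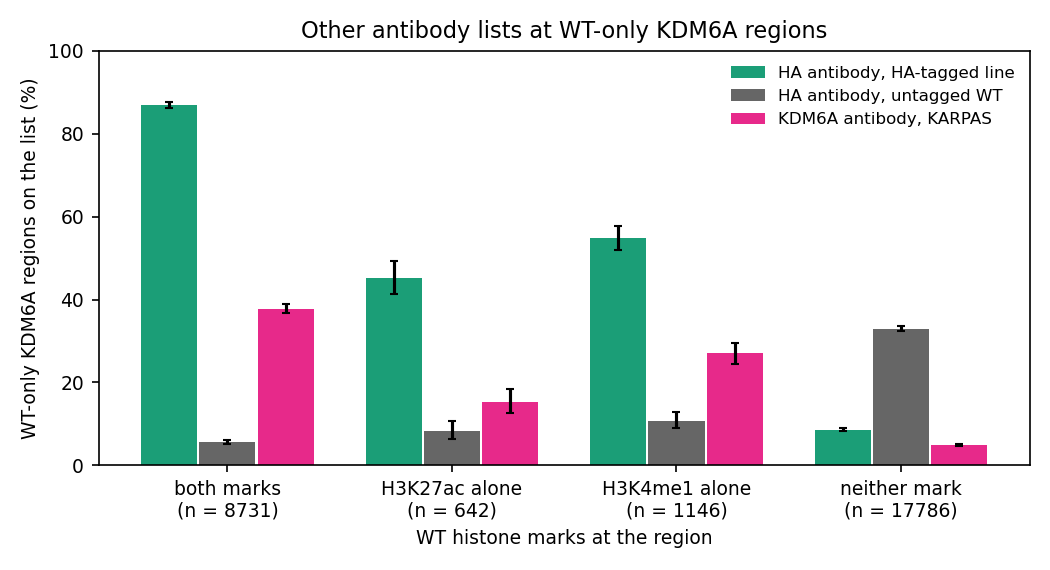
Percent of WT-only KDM6A regions, grouped by the histone marks of WT cells at the region, that lie on the HA list of the HA-tagged line, the HA list of untagged WT cells and the KDM6A list of KARPAS. Bars show the share with its 95% Clopper-Pearson interval. The HA-tagged list holds 86.9% of the regions with both marks and 8.58% of those with neither, and the untagged list 5.67% and 33.0%.

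Seen from the histone marks, WT-only KDM6A regions were found at distal elements more often than at promoters of the same rank. Of 53144 WT H3K27ac regions outside the dense bins, 9583 held a WT-only KDM6A region (18.0%, 17.7 to 18.4). The share was 22.7% (22.3 to 23.2) of H3K27ac regions over 10 kb from a gene start and 6.31% (5.89 to 6.75) of those within 2.5 kb. Within the highest decile of H3K27ac rank it was 62.8% (60.3 to 65.2) of 1504 distal regions and 12.1% (11 to 13.2) of 3492 regions at gene starts. The distal regions of that decile were longer, with a median of 3829.5 bp against 2622 bp, and the part of length in the difference was not tested. In the fifth decile, where the median lengths were 617 bp and 582.5 bp, the shares were 27.4% (26 to 28.8) and 5.23% (3.73 to 7.11). H3K4me1 gave 54.0% (51.7 to 56.3) of 1847 distal regions in its highest decile and 9.50% (8.68 to 10.4) of 4802 at gene starts. H3K27ac regions that also carried H3K4me1 held a WT-only KDM6A region in 22.6% of cases, and those without H3K4me1 in 4.12%.

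**Figure D3:**
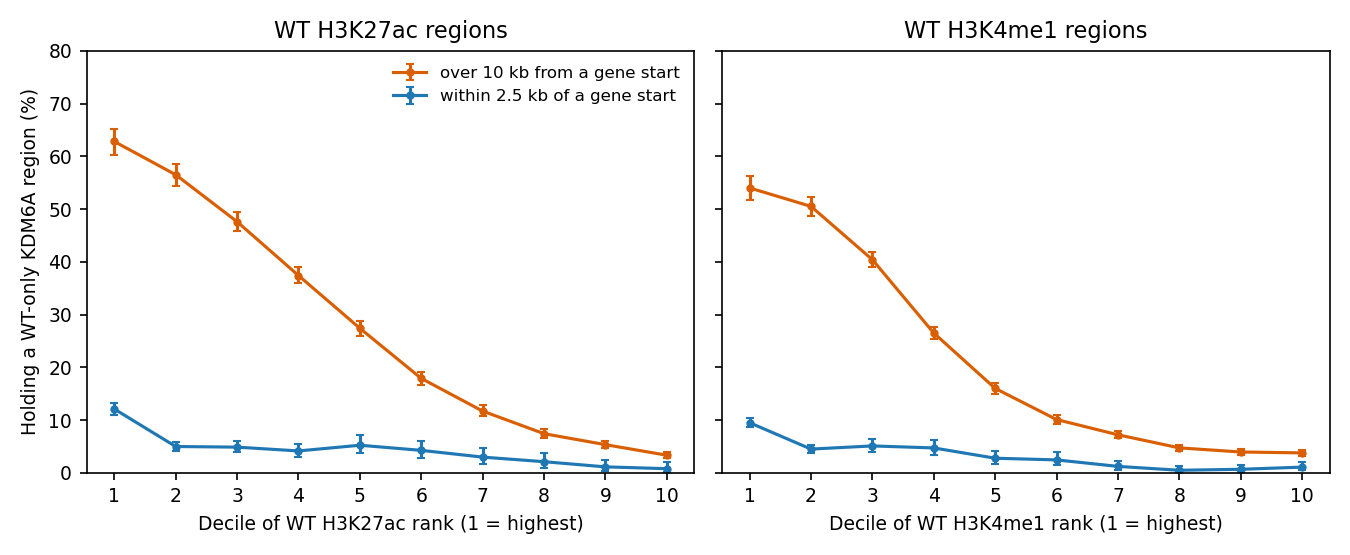
Percent of WT H3K27ac regions (left) and WT H3K4me1 regions (right) that hold a WT-only KDM6A region, by decile of the mark's own rank, for regions over 10 kb from a gene start and within 2.5 kb of one. Bars are 95% Clopper-Pearson intervals. In the highest H3K27ac decile the shares are 62.8% for distal regions and 12.1% at gene starts, and the distal share is the higher one in every decile of both marks.

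Within shared elements the KDM6A summit stood beside the H3K27ac summit and on the HA summit. The median distance from the summit of a WT-only region to the H3K27ac summit was 320 bp over 9373 regions, and 5.94% (5.47 to 6.44) of the summits were within 100 bp. The nearest H3K4me1 summit was at a median of 156 bp. The summit of the HA-tagged list was at a median of 65 bp over 10037 regions, with 69.6% (68.7 to 70.5) within 100 bp. The KARPAS KDM6A summit was at a median of 56 bp over 4573 regions, with 73.2% (71.9 to 74.5) within 100 bp. The untagged HA summit was at a median of 94 bp over 6538 regions, with 52.6% (51.4 to 53.9) within 100 bp. The lists give 1 summit for each H3K27ac region and several for an H3K4me1, HA or KDM6A region, and they differ in region length, so these distances are compared as a description.

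**Figure D4:**
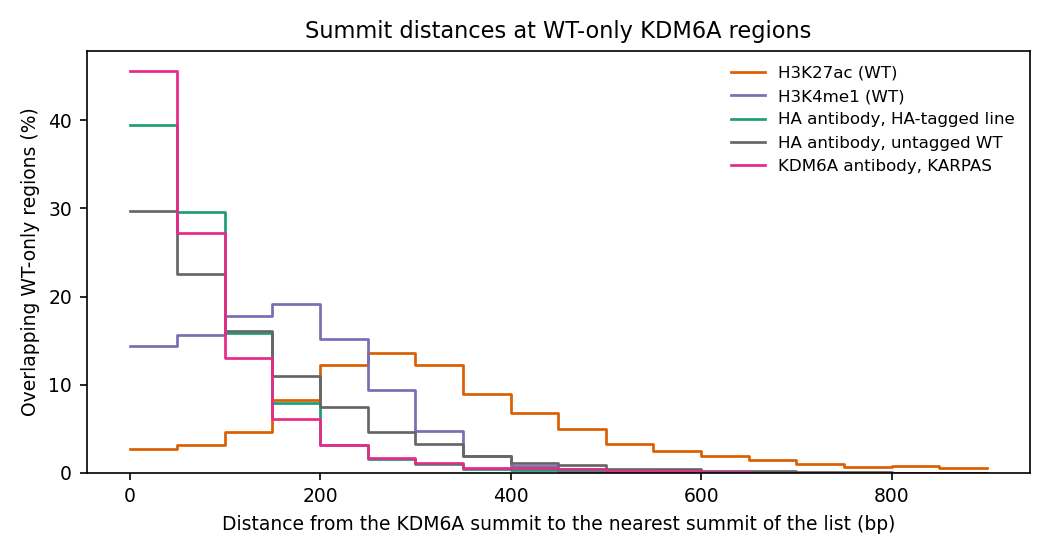
Distance in bp from the summit of a WT-only KDM6A region to the nearest summit of each list, as the percent of the WT-only regions that overlap that list, in steps of 50 bp. Distances of 950 bp or more, 9.92% of those to H3K27ac, are not drawn. The HA-tagged, KARPAS and untagged HA lists peak in the step nearest to 0 (39.5%, 45.6% and 29.7%), where H3K27ac has 2.69%.

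The H3K27ac at WT-only regions was mostly still listed in KO cells. Of the WT-only regions on WT H3K27ac, 84.7% (84.0 to 85.4) also overlapped a KO H3K27ac region, against 89.4% (87.6 to 90.9) of the WT regions with a KO region. Of the H3K27ac regions that held a WT-only KDM6A region, 86.7% (86.0 to 87.4) had a KO H3K27ac region, and of those without one 69.0% (68.5 to 69.4) did. At like rank these shares lay closer, at 97.5% (96.6 to 98.2) against 98.9% (98.5 to 99.2) in the third decile. They were 81.4% (79.1 to 83.5) against 83.4% (82.2 to 84.5) in the fifth and 60.5% (56.3 to 64.6) against 57.6% (56.2 to 59) in the seventh. In the ninth they were 44.9% (38.6 to 51.4) against 39.9% (38.6 to 41.3). Of these deciles, only the third had intervals that did not overlap. H3K4me1 of WT cells was seldom listed at the same place in KO cells, whose library held 25.6 M fragments and 80845 regions against 34.0 M and 95729 in WT. The KO H3K4me1 regions covered 37.9 Mb with a median pileup of 8, against 71.8 Mb and 10 in WT. The part of this weaker KO list in the overlaps below was not tested. Over all WT H3K4me1 regions, 21.6% (20.8 to 22.4) of those with a WT-only KDM6A region and 13.1% (12.8 to 13.4) of those without one had a KO region. Of the WT-only regions on WT H3K4me1, 9.90% (9.32 to 10.5) overlapped a KO H3K4me1 region, against 32.8% (30.5 to 35.3) of the WT regions with a KO region. H3K4me1 regions that held a WT-only KDM6A region had a KO region in 49.9% (47.4 to 52.4) of cases in the highest decile, against 31.9% (30.6 to 33.1) of those without. In the fourth decile the order was the other way, at 11% (9.50 to 12.7) against 14.1% (13.2 to 15.1).

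WT-only regions lay farther from gene starts than WT regions with a KO region and than regions of the 2 marks. Their median distance to the nearest start was 83.1 kb, against 59.1 kb for WT regions with a KO region, 27.6 kb for WT H3K27ac regions and 27.7 kb for WT H3K4me1 regions. Of the 28305, 944 (3.34%, 3.13 to 3.55) lay within 2.5 kb of a start, against 5.02% (4.26 to 5.88) of those with a KO region and 23.7% (23.4 to 24.1) of H3K27ac regions. The share of the genome within 2.5 kb of a start was not computed, so these values show no preference against random placement. Over 100 kb away were 12893 (45.6%, 45.0 to 46.1), and 42.8% lay inside the span of a gene. The regions with both marks had a median distance of 49.3 kb and those with neither 111 kb. By chromosome, the X held 1369 WT-only regions, of which 84.4% had neither mark, a share that lay between 38.9% and 66.5% on the other chromosomes. The X held 85.3 WT-only regions for each 100 H3K27ac regions, against 75.9 on chromosome 4, 67.3 on chromosome 5 and 17.8 on chromosome 19, the lowest.

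Of 18104 protein-coding genes tested, 853 (4.71%) had a WT-only region within 2.5 kb of the start and no KO region there. A start could be placed for 15812 of the 19974 genes, and either end was used for the others. The 1870 genes in dense bins were not tested. H3K27ac marked 83.5% of the 853 genes in WT cells, against 59.5% of all tested genes. For 65.5% of the 853 genes the highest ranked WT-only region at the start was on the HA-tagged list. Genes with H3K27ac at the start had a WT-only region in 6.61% of cases and genes without it in 1.92%. Of the 13 gene lists examined, plasma cell identity and interferon-stimulated genes had the highest shares, at 4 of 16 (25.0%, 7.27 to 52.4) and 5 of 27 (18.5%, 6.30 to 38.1). The KO list also had a region at the start of 2 of the 16 plasma cell genes. It had one at 0 of the 27 interferon genes and at 223 of the 18104 genes. Peptide presentation on MHC class I had 2 of 21 (9.52%, 1.17 to 30.4), whose interval includes the share over all genes. At equal list lengths the class I, NF-kB, BCL2 family and stromal lists had 0. The MHC class II, B cell, T and NK cell, housekeeping, endoplasmic reticulum, COMPASS and myeloid lists each had 0, where the tested members numbered 9 to 17 and the upper limits of the intervals were 19.5% to 33.6%. Earlier results on these data were known when the lists were chosen, so the counts are descriptions.

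**Figure D5:**
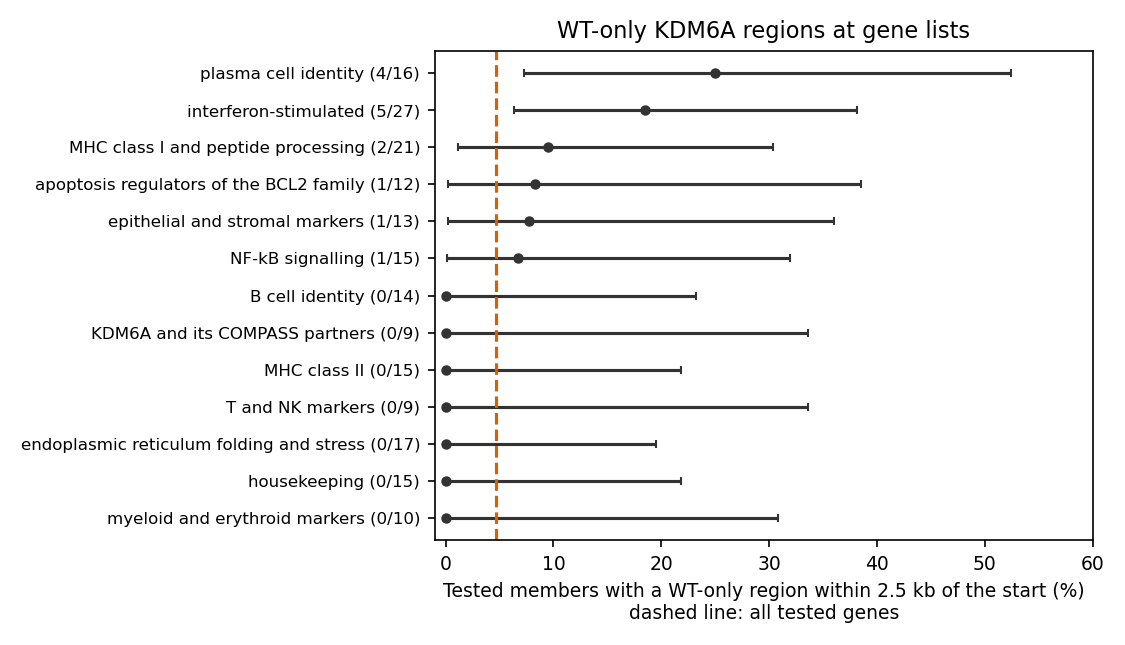
Percent of the tested members of each gene list with a WT-only KDM6A region within 2.5 kb of the start and no KO region there, with 95% Clopper-Pearson intervals. The counts stand beside each name, and the dashed line is the 4.71% of all tested genes. Plasma cell identity (4 of 16) and interferon-stimulated genes (5 of 27) lie farthest to the right.

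Among plasma cell genes, CD38, a surface enzyme targeted by antibodies in myeloma, had 2 regions at its start that the HA-tagged and KARPAS lists also held. A WT-only region at chr4:15778111-15778511, with a pileup of 12, overlaps the promoter window printed above. A higher one at chr4:15778828-15779336 had a pileup of 21 and its summit 0.802 kb after the start. Both lay on H3K27ac and H3K4me1 and on the HA-tagged and KARPAS lists. In all 10 WT-only regions lay in or within 10 kb of CD38, with pileups of 6 to 21. The 6 of them farther than 10 kb from its start had neither mark and were all on the untagged HA list.

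IRF4, a transcription factor that plasma cells require, had WT-only regions at chr6:389688-390771 with a pileup of 17 and at chr6:391005-391204 with a pileup of 6, both before its start. TNFRSF17 encodes BCMA, another myeloma target, and had a region over 1 gene end at chr16:11964752-11965235 with a pileup of 15. Both HA lists, the untagged one included, and the KARPAS list had a region there. JCHAIN, which joins polymeric antibodies, had 1 with a pileup of 6, close to the lowest value listed. XBP1, the transcription factor of the secretory programme, had none at its start. A region of rank 583 with a pileup of 39 lay 1.76 kb past its 3′ end at chr22:28791883-28792803, and both HA lists and KARPAS had a region there. Within gene spans and 10 kb on either side, 11 of the 16 plasma cell genes (68.8%) had a WT-only region, against 33.9% of all genes, and this count depends on gene length. ELL2, an elongation factor used for secreted antibody mRNA, had 5, all on both marks, and PRDM1, which encodes BLIMP1, had 1, with a pileup of 20. POU2AF1, SLAMF7, FCRL5 and IL6R lay in dense bins.

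The interferon-stimulated genes with a region at the start were IFIT1, IFIT5, IFI44L, ISG20 and BST2. IFIT1, whose product binds viral RNA, had a region over the promoter printed above at chr10:89392090-89392703 with a pileup of 16. The KARPAS list held this region and the HA-tagged list did not. A second region at chr10:89392931-89393385 had a pileup of 37 and its summit 0.551 kb after the start, and the HA-tagged list held it. IFIT5, of the same family, had a pileup of 28 at chr10:89414339-89414716, with its summit just before the start. The same region also covered the start or an end of the gene LIPA. IFI44L had a pileup of 12 at chr1:78620179-78620475. The HA-tagged list held the IFIT5 region, and neither HA list nor the KARPAS list held the one at IFI44L. None of these 4 regions lay on H3K27ac, and of the 4 only the one at IFIT5 lay on H3K4me1. ISG20, an exonuclease, and BST2, which tethers budding virus particles, had regions at their starts with pileups of 9 and of 7 and 8, on both marks and on the HA-tagged list. The lower BST2 region was also on the untagged HA list. H3K27ac lay at 12 of the 27 tested members.

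NLRC5, the transactivator of MHC class I genes, had 7 WT-only regions in or near its span, with pileups of 8 to 30. All 7 were on both marks and on the HA-tagged list, and 4 were on the KARPAS list. The one nearest a gene end lay 0.740 kb from it at chr16:56990297-56990627 with a pileup of 13, and the highest was inside the gene at chr16:57049658-57050058. TAP2, a subunit of the peptide transporter, had a region with a pileup of 12 at chr6:32840581-32841051, 1.84 kb from its start. This region lay inside the span of the gene PSMB8. CIITA, the transactivator of class II genes, had none within 2.5 kb of a gene end. The nearest was 4.92 kb from one, and its 3 regions, with pileups of 8 to 25, were on both marks and on the HA-tagged and KARPAS lists. BACH2, a repressor of plasma cell differentiation, had 11 WT-only regions in its span, 7 of them on both marks. At REL, an NF-kB subunit, the region had a pileup of 11 and neither mark, and at VIM, an intermediate filament gene used here as a stromal marker, 12 and both marks. The VIM region was on both HA lists, the untagged one included, and on the KARPAS list. BCL2A1 had a pileup of 8 over its start and neither mark. KLRD1, an NK cell receptor gene, had none at a gene end but 3 inside its span, with pileups of 14 to 31, all without either mark and all on the HA-tagged list.

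Most of the highest ranked WT-only regions lay away from gene starts, and not all of them had marks. In the highest decile of rank 51.8% (49.7 to 54) were inside the span of a gene, against 42.8% of all WT-only regions. Of the 100 highest, 5 lay within 2.5 kb of a gene start, 59 on H3K27ac, 79 on the HA-tagged list, 36 on the KARPAS list, 8 on the untagged HA list and 0 on an input region (up to 3.62%). The highest, at chr4:154120185-154121074, had a pileup of 99, lay 331 kb from SFRP2 and had neither mark, but was on the HA-tagged list. The next, at chr15:72078577-72079333, had the same pileup, both marks and a KARPAS region, 34.9 kb from SENP8. Of the 10 highest, 4 were on neither mark nor the HA-tagged list. These lay near GALNT5, NR2F2, FSTL5 and SIPA1L2, with pileups of 69 to 91. The 5 highest on H3K27ac over 10 kb from a gene start, near SENP8, OBI1, CEP128, LRRC4C and TLL1, had KDM6A pileups of 65 to 99. Their H3K27ac was modest, with fold enrichments of 4.10 to 8.56 and ranks of 24966 to 53218 among 69127 regions.

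At gene ends, the highest ranked WT-only regions lay at GALNT5, a glycosyltransferase gene, with a pileup of 59, at the near-identical amylase genes AMY1A, AMY1C and AMY1B, and at WHAMM, which promotes actin assembly. CHST12, NEGR1, HILPDA, FOXN1 and MAL2 followed, with pileups of 47 to 52. The amylase regions lay 0.124 kb from the 3′ ends, and their reads cannot be assigned to 1 copy with certainty. With both marks required, PDSS2, BBS4, XBP1, RASA1 and IFT70B joined the 10 highest, with pileups of 36 to 43. All 5 of those regions lay at 3′ ends. The H3K27ac fold enrichment at the region was 136 at XBP1 and 145 at CHST12, a sulfotransferase gene, against 9.31 at RASA1.

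Regions listed in KO cells alone were few, and 86.2% (84.5 to 87.9) carried neither mark of WT cells. H3K27ac of KO cells overlapped 10.3% (8.83 to 11.9) of the 1607 KO-only regions and that of WT cells 10.8% (9.35 to 12.5). H3K4me1 of KO cells overlapped 19.4% (17.5 to 21.4) of them and that of WT cells 11.9% (10.4 to 13.6). For WT-only regions the share on H3K4me1 of KO cells was 4.77% (4.53 to 5.03). The HA-tagged list held 12.4% and the untagged list 21.0%. A KO-only region and no WT region lay at the start of 59 of 18104 genes (0.326%). The 10 highest ranked at a gene end lay at PIK3CD, AMPD3, SPAAR, TWIST2, OSGIN1, KRT85, MDM2, PDP2, LOC124902361 and GP1BA, with KO pileups of 13 to 24. MDM2, which encodes the ubiquitin ligase of p53, had a KO-only region with a pileup of 14 on H3K27ac of KO and of WT cells.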

How the data were processed

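The data were deposited lists of enriched regions, 1 library a group. The members and gene lists were chosen with earlier results of these data known. Per the submitters' processing notes, the reads went through Trimmomatic, Bowtie2 and MACS2 2.1.2 on GRCh38, with FastQC and MultiQC as quality reports. The KDM6A, HA and H3K4me1 lists came from MACS 2.1.1.20160309 and the others from 2.2.7.1, per the file headers, called per library at a q-value of 0.05 with no control and no local background, so extra DNA copies or repeats can appear as regions. KDM6A and HA tags were extended to 200 bp. The deposited values of a region are its pileup (a signal), its fold enrichment (a ratio) and its p-value and q-value as −log10. They are the authors' own and served only to rank, filter or describe regions within a list.

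Rows with equal coordinates were merged. The median count of regions in 3042 bins of 1 Mb, empty bins included, was 1 in KO and 11 in WT, and bins over 10 times either were left out. Gene starts came from RefSeq GRCh38.p14 promoter coordinates. Genes were named by rule: the 10 whose WT-only region within 2.5 kb of a gene end ranked highest, the same with both marks, the 5 highest distal regions on H3K27ac, the 10 highest KO-only genes, list members with a WT-only region, and KDM6A, NLRC5 and CIITA. Genes named for regions across their span, for promoter elements or for the highest ranks overall were chosen after their values were seen. Promoter windows were also compared between lists after the data were seen. No test was run, since each group has 1 library. JmjD-dead histone libraries and mouse libraries were not used. The alternatives were lists of equal length, a stricter −log10 q (at least 5), other overlaps, windows and bins, and removal of background regions. The work was done in Python 3.11.15 (pandas 2.3.3, numpy 2.4.6, scipy 1.17.1, matplotlib 3.10.9). On simulated data with known answers, 5 of 5 checks of the overlap, distance and bin functions gave those answers.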

Additional observations from a re-analysis of the deposited data

How the results depend on the processing

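The share of WT regions that were WT-only was 90.7%. It was 92.8% at a −log10 q of at least 5, 71.8% with both lists at the same number of highest ranked regions, 94.0% when a KO region had to cover 50% of the WT region, 69.4% with dense bins kept and 91.8% without bins over 5 times the median. It was 92.1% without regions on the untagged HA list and 91.0% without regions on input. The H3K27ac and H3K4me1 overlaps, 33.1% and 34.9%, were 49.4% and 51.3% at the higher q, 67.6% and 69.2% at equal list lengths, 22.4% and 28.7% with dense bins kept, 40.5% and 42.5% without regions on the untagged HA list, and 24.3% and 27% when the mark had to cover 50% of the KDM6A region. The share within 2.5 kb of a gene start, 3.34%, was 4.11%, 4.68%, 2.27% and 3.72% under the first 4 of these, and 1.63% and 11% with windows of 1 kb and 10 kb. The 853 genes became 555 at the higher q, 151 at equal list lengths, and 441 and 2446 with the 2 windows.

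Alternatives chosen after seeing the data took the median over bins with a region, used the untagged WT HA list in place of the KO list, or counted a KO region within 1 kb as shared. The WT-only share was then 90.2%, 75.9% and 86.8%. With the HA list the overlaps were 42.2% for H3K27ac and 44.3% for H3K4me1, and with the 1 kb rule 33.9% and 35.7%. The share near gene starts was 3.71% with the other median and 3.9% with the HA list. Leaving out chromosomes 2 and 11 kept every one of these 5 results within its counting interval or, for genes, within 1.5 times.

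CD38, IFIT1 and IFIT5 kept their call in 13 of 13 alternatives. At equal list lengths the interferon and plasma cell lists had 2 genes each, and ISG20, IFI44L, BST2, TNFRSF17, JCHAIN, NLRC5, TAP2, REL, BCL2A1 and VIM lost their call. With the HA list in place of the KO list IRF4, TNFRSF17, JCHAIN, BST2 and VIM lost theirs and TNFRSF13B gained one, which left 4 interferon and 2 plasma cell genes. The cause of these differences was not tested. The shares depend on the threshold and on list length, and a region not listed may still hold tags. The KO library was the deeper one, and the part of depth in the shares was not tested. No paired analysis was possible because each group has 1 library.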
